A study of Mus musculus with 12 samples.

Results

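Narrow stretches of open chromatin away from gene starts that brown fat and inguinal white fat (iWAT) had in common were followed in mice with and without BAF60a in their adipocytes. They were taken from the brown fat table as peaks more than 1000 and at most 50000 bp from the start site to which the authors' annotation assigned them, less than 1500 bp wide, and overlapping a peak of the iWAT table by at least 1 bp. Beyond the peak calls of both tables, which depend on reads, the rule used position and width only. It gave 13219 of 58558 brown fat peaks, assigned to 7505 genes, and paired them with 13177 of 39558 iWAT peaks, each by its longest overlap. Of all narrow brown fat peaks at these distances, 44.0% had an iWAT partner, against 90.4% of brown fat peaks within 1000 bp of a start site and 53.8% of all brown fat peaks. In the GENCODE annotation of mm10, the midpoint of a shared distal peak lay in an exon in 12.4%, in an intron in 53.1% and between genes in 34.5%. The label "distal" held for most but not all of them, since 1730 (13.1%) were within 1000 bp of another annotated start.

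ATAC-seq measures open chromatin by letting a transposase insert sequencing adapters into DNA that nucleosomes leave free, so that more reads at a site mean more accessible DNA. Distal accessible sites often act as enhancers, where transcription factors bind and raise the activity of genes some distance away, and they differ between cell types far more than promoters do. BAF60a, encoded by Smarcd1, is a subunit of the SWI/SNF complexes, which slide and evict nucleosomes with energy from ATP and are brought to their sites by transcription factors that BAF60 subunits contact. Brown adipocytes burn fuel for heat through UCP1, and inguinal fat gains beige adipocytes with a similar program during cold acclimation.

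All mice were C57BL/6 and carried BAF60a alleles flanked by loxP sites (flox/flox). AKO mice also carried Cre driven by the Adiponectin promoter, which deletes BAF60a in adipocytes but not in the vessel, immune or stromal cells of the same tissue, and flox littermates without Cre were the controls. Brown fat was compared between 3 flox and 3 AKO mice, each sample the tissue of 1 mouse. The paper's ATAC-seq methods state no age or cold acclimation for these mice. For iWAT, mice of 6 to 8 months were kept at 10 °C for 7 days, the tissue of 6 mice was pooled for each genotype, and the 3 samples of a genotype were aliquots of that pool. Their spread is therefore technical, and p-values in iWAT do not cover differences between mice. Whole tissue was used, so a smaller share of nuclei of a type and lower accessibility per nucleus cannot be told apart.

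Values are given as normalized reads, that is, reads in the peak over the sample's size factor. Reads in all peaks ranged from 6336670 to 27500738 in brown fat and from 4066720 to 6691161 in iWAT, of which the shared distal peaks held 21.5 to 23.7%. The median shared distal peak had 85 to 307 reads in a brown fat sample and 55 to 88 in an iWAT sample. In brown fat, the first principal component (PC1) held 55.6% of the variance between samples and was led by the deepest library, flox 1, and the shallowest, AKO 2. Its scores were -98.2, -41.8 and 14.6 in flox and -0.62, 112 and 13.5 in AKO mice. It was thus partly tied to genotype, and as a covariate it can absorb part of a genotype difference. PC1 was a covariate in brown fat, as in the study's own design, and not in iWAT. In iWAT it held 33.8% of the variance and separated the genotypes. Where the brown fat difference of a named peak, or the median of a gene list, changed its sign or moved by more than 1.5 times without PC1, the value without it stands beside it. As a check of the tissue, the 12 brown fat peaks assigned to Ucp1 summed to 5091 to 7820 normalized reads in flox and 2246 to 2863 in AKO mice, and the 3 iWAT peaks to 169 to 179 and 161 to 183.

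The sequences below are the middle 200 bases of 7 shared distal peaks on which the results turn, read from the plus strand of RefSeq's copy of mm10. The first 2 were less accessible in AKO brown fat, the third more accessible there, the fourth less and the next 2 more accessible in AKO iWAT, and the last differed in opposite directions in the 2 tissues. Out of 12 motifs searched, capitals mark matches to TGANTCA, searched for AP-1 (Olfm1 and Eln), and to the CTCF motif (Spata13). In Lamb3 they mark the ETS motif ACCGGAAGT on the other strand, with 1 mismatch.
Cfd, chr10:79897098-79897297: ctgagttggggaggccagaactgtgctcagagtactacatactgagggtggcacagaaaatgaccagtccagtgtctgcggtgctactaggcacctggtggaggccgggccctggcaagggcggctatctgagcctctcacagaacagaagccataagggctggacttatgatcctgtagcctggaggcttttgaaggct
Lamb3, chr1:193323723-193323922: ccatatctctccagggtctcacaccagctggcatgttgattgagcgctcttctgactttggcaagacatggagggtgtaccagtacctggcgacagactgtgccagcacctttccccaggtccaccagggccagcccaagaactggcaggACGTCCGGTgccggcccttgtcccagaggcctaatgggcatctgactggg
Ptp4a3, chr15:73754430-73754629: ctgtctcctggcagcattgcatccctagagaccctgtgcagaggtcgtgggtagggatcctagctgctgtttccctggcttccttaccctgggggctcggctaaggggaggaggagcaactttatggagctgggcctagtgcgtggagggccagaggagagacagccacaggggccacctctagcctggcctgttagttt
Tfr2, chr5:137580115-137580314: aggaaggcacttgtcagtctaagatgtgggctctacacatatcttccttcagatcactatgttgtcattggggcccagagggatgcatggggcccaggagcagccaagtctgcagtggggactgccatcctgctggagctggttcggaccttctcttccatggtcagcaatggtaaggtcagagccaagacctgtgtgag
Olfm1, chr2:28219082-28219281: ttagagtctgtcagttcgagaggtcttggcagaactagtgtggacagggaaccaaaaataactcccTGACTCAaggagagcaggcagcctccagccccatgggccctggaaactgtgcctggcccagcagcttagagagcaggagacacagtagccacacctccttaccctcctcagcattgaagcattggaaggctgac
Eln, chr5:134763435-134763634: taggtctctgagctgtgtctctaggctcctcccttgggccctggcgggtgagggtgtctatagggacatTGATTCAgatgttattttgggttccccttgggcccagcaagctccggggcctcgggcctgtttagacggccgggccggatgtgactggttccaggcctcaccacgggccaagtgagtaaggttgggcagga
Spata13, chr14:60736793-60736992: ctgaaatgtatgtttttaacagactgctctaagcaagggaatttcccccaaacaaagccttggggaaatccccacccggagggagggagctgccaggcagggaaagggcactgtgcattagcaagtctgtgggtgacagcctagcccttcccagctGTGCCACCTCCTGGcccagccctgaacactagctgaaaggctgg

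The shared distal peaks were small regulatory windows, with a median width of 513 bp in brown fat and 361 bp in iWAT and a median overlap of 319 bp. Overlap covered at least 50% of both peaks in 72.5% of the pairs. The median distance to the assigned start was 15342 bp, and 42.5% lay upstream of it. They were richer in G and C than narrow distal peaks found in brown fat alone, with a median of 52.7% against 50% in a window of 300 bp around the midpoint, and poorer than shared promoter peaks, at 66.3%. They were also stronger than distal peaks found in brown fat alone, with a median of 161 against 71.4 normalized reads in flox brown fat. Sharing required a peak call in the shallower iWAT libraries as well, so this difference may follow from the rule. In flox iWAT the median was 62.5. Across the 13219 pairs, the flox levels of the 2 tissues had a Pearson r of 0.506 and a Spearman rho of 0.50. Width and base composition, which the 2 peaks of a pair share in part, were not taken into account, and the tables were normalized separately. At the edges of the rule, the peak 1002 bp from the start of Nr2f2 (inside) differed by 0.27 in brown fat (0.03 without PC1) and -0.04 in iWAT on the log2 scale, and the peak 997 bp from Gapvd1 (outside) by 0.41 (0.07 without PC1) and -0.05. The widest peak inside, 1499 bp at Pemt, differed by -0.27 (-0.18 without PC1) and -0.15, and the narrowest outside, 1500 bp at Wnt8b, by 0.04 (-0.25 without PC1) and -0.14. At the far limit, the peak 49998 bp from Srl (inside) differed by 0.41 (0.06 without PC1) and 0.18, and the peak 50002 bp from Sash1 (outside) by 0.26 (0.55 without PC1) and -0.32. The shortest overlap was 1 bp, in 3 pairs.

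As a group, the shared distal peaks were shifted little by loss of BAF60a in either tissue, with changes in both directions. AKO was compared with flox at every peak by limma, on log2(normalized reads + 1), and p-values were adjusted by Benjamini-Hochberg over all peaks of its table. The median difference of the shared distal peaks was 0.03 in brown fat, with 90% of them between -0.47 and 0.53, and 0.04 in iWAT, with 90% between -0.52 and 0.62. Over all peaks the medians were 0.0067 and -0.00089. Without PC1 the brown fat medians were -2.2e-05 for the shared distal peaks and -0.014 for all peaks. No shared distal peak passed an adjusted p of 0.1 by limma (smallest 0.417 in brown fat and 0.149 in iWAT), and neither did any other peak (0% of 58558 and 0% of 39558 tested). At an unadjusted p of 0.05, limma had 430 shared distal peaks lower and 556 higher in AKO brown fat (3.25% and 4.21%, against 5.59% and 3.46% of all peaks), and 853 lower and 1412 higher in AKO iWAT (6.47% and 10.7%, against 7.42% and 7.61%). DESeq2, on the whole reads recovered from the tables and with the same design, called 20 lower and 22 higher among 11334 shared distal peaks tested in brown fat (0.176% and 0.194%, against 0.298% and 0.11% of all peaks). In iWAT it called 60 lower and 107 higher of 12390 (0.484% and 0.864%, against 0.63% and 0.546%). The other 1885 and 787 had no adjusted p from DESeq2, which leaves out peaks of low count or with an outlying sample. Leaving out 1 library at a time gave 0 to 24 lower and 1 to 56 higher calls by DESeq2 in brown fat, and 2 to 83 lower and 3 to 77 higher in iWAT. The fewest calls came without flox 3 (0 lower) or AKO 1 (1 higher) in brown fat and without flox 1 in iWAT, and the 56 came without AKO 3. By edgeR the calls were 6 lower and 8 higher in brown fat and 262 lower and 399 higher in iWAT. Shares over all peaks are not given for edgeR or with a library left out. Those counts are therefore not set against the background.

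The genotypes did not overlap, every AKO sample lying beyond every flox sample, at 1210 shared distal peaks lower in AKO brown fat (9.15%, against 8.84% of all peaks) and 1218 higher (9.21%, against 8.77%). Both shares were near the background, and counts without overlap hold no correction for PC1. In iWAT, 1097 were lower (8.33%, against 10.3% of all peaks) and 1775 higher (13.5%, against 10.6%). The 1775 higher peaks were thus 61.8% of those without overlap in iWAT, while shared promoter peaks had 9.34% lower and 9.5% higher. In brown fat the split was 50.2% higher, and with scaling to total reads in peaks in place of size factors it was 62.4%, with 906 lower and 1506 higher. An exact permutation test of 3 against 3 samples cannot go below p = 0.1, so that 1 peak without overlap is not significant alone.

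**Figure D1:**
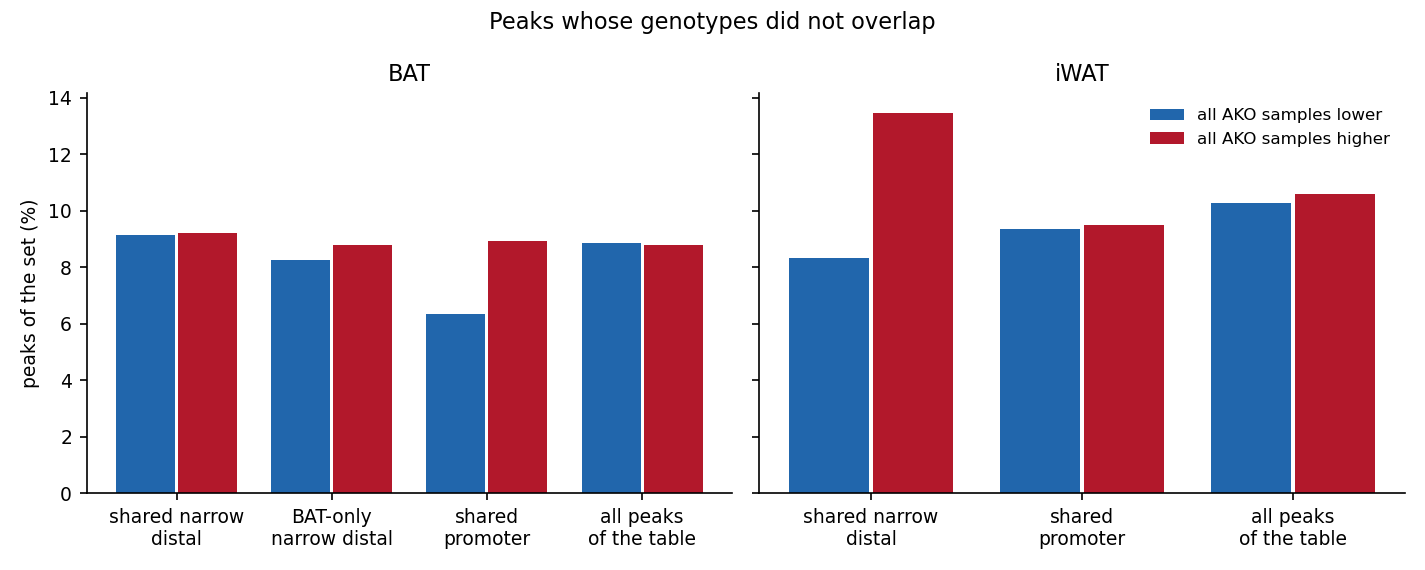
Share of peaks, in percent, at which the genotypes did not overlap, lower and higher in AKO, for shared distal peaks, other sets of peaks and all peaks of each table. The bar for shared distal peaks higher in AKO iWAT reaches 13.5%, against 10.6% of all iWAT peaks.

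In brown fat, the named peaks that were lower in AKO mice lay by Prelp, Lamb3, Insig1, Prkar2b and Cfd. Upstream of Prelp, a matrix proteoglycan gene, an intergenic peak (chr1:133933348-133934811) had 1703, 1635 and 1507 in flox against 893, 705 and 793 in AKO brown fat. The 6 values did not overlap, with a log2 difference of -0.85 ± 0.18 (SE, n = 3 per genotype) by limma and an adjusted p of 1.09e-05 by DESeq2. In iWAT the genotypes overlapped, with 277, 261 and 294 in flox against 251, 291 and 243 in AKO samples.

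An exonic peak of Lamb3, which encodes a laminin chain (chr1:193323459-193324186), had 714, 768 and 687 in flox against 414, 365 and 386 in AKO brown fat (-0.82 ± 0.18, DESeq2 adjusted p 0.00253). Its iWAT partner was weak and overlapped, at 50.8 to 58.5 in flox and 46.1 to 75.4 in AKO samples. Downstream of Insig1, whose product holds the sterol sensor in the endoplasmic reticulum, a small peak had 73.2, 80.5 and 89.3 in flox against 43.3, 52.1 and 46.1 in AKO mice (-0.96 ± 0.17). A peak 36154 bp upstream of Prkar2b, a regulatory subunit of protein kinase A, had 166, 155 and 197 in flox against 78.3, 114 and 108 in AKO mice (-1.02 ± 0.22, DESeq2 adjusted p 0.126). DESeq2 gave the Insig1 peak no adjusted p. These 4 peaks and that of Cfd, described with iWAT below, are 5 of the 6 with the smallest limma p among lower peaks without overlap whose mean was 50 normalized reads or more.

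Other named peaks were higher in AKO brown fat. An intronic peak of Krt28, a keratin gene of the hair follicle, had 30.3, 31.0 and 34.9 in flox against 83.5, 75.3 and 94.0 in AKO mice (1.39 ± 0.20), and a peak 41418 bp upstream of Piwil1, a germline gene for piRNA pathways, had 51.7, 49.5 and 55.6 against 120, 147 and 123 (1.14 ± 0.18, DESeq2 adjusted p 0.133). Intronic peaks of Anxa4, a membrane-binding annexin, and Ctdspl, a phosphatase, were higher by 1.03 ± 0.20 and 1.01 ± 0.20. All 6 samples separated by genotype at these 4 peaks, and limma adjusted p was 0.417 at each. In an intron of Ptp4a3, a phosphatase gene (chr15:73754259-73754801), a peak had 265, 200 and 181 in flox against 388, 292 and 425 in AKO mice (1.15 ± 0.18, DESeq2 adjusted p 0.000141).

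The lower and higher calls of DESeq2 in brown fat rested differently on PC1. Of the 20 lower calls, 17 had genotypes without overlap and 16 were called again without PC1. Of the 22 higher calls, 4 had genotypes without overlap and 3 were called again. The median limma difference of the lower calls was -0.81 with and -0.80 without PC1, and that of the higher calls was 1.07 with and 0.35 without it, with an opposite sign at 2 of them. An example is a peak by Car4, a carbonic anhydrase gene, which had 929, 579 and 392 in flox against 928, 355 and 631 in AKO brown fat. Its genotypes overlapped fully, with a difference of -0.01 without PC1 and a DESeq2 log2 difference of 0.92 ± 0.19 with PC1 (adjusted p 0.000998).

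**Figure D2:**
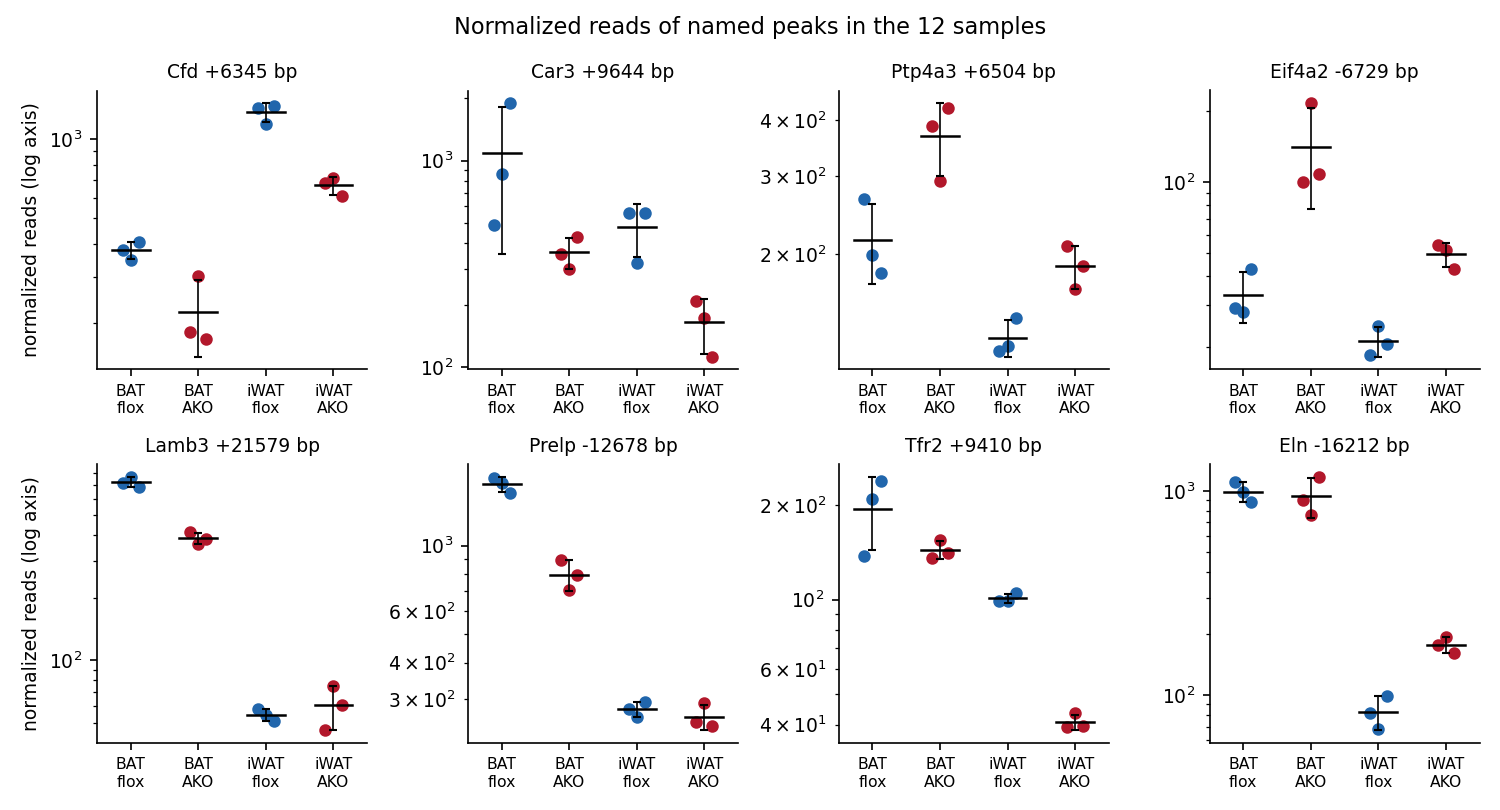
Normalized reads on a log axis at named shared distal peaks in each of the 12 samples, flox and AKO, brown fat and iWAT. Points are samples, lines are means with SD, and Prelp shows flox brown fat at 1507 to 1703 above AKO at 705 to 893, with iWAT overlapping.

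In iWAT, the named peaks that were lower in AKO samples lay by Tfr2, Slc25a10, Cfd, Nedd9, Ptp4a2 and 1500009L16Rik. An exonic peak of Tfr2, a transferrin receptor that senses iron (chr5:137579919-137580511), had 99.1, 99.0 and 105 in flox against 39.2, 43.4 and 39.6 in AKO samples (-1.29 ± 0.12, DESeq2 adjusted p 0.000312). In brown fat it had 138, 209 and 238 against 136, 155 and 141, where the groups overlapped (-0.73 ± 0.22, and -0.40 without PC1, DESeq2 adjusted p 0.378). A peak upstream of Slc25a10, the mitochondrial dicarboxylate carrier, had 121, 108 and 111 in flox against 61.1, 54.8 and 60.9 in AKO iWAT (-0.93 ± 0.13, DESeq2 adjusted p 0.00888). Peaks at Nedd9, a scaffold protein of focal adhesions, Ptp4a2, a phosphatase, and 1500009L16Rik were lower by -0.98 ± 0.15, -0.97 ± 0.16 and -1.01 ± 0.17, with DESeq2 adjusted p of 0.0597, 0.0218 and 0.0215.

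At Cfd, the gene of adipsin, a complement protease that adipocytes secrete, the peak (chr10:79896798-79897598) lay 6345 bp downstream of the start, inside an intron of the neighbouring gene Med16. It had 1322, 1146 and 1335 in flox against 682, 714 and 608 in AKO iWAT, and 378, 349 and 406 in flox against 185, 301 and 174 in AKO brown fat. The iWAT reads were counted over its iWAT partner, the wider peak chr10:79896047-79898460, which reaches past it on both sides. All AKO samples were below all flox samples in both tissues. The limma differences were -0.92 ± 0.14 and -1.17 ± 0.23, and DESeq2 gave adjusted p of 3.13e-23 in iWAT and 0.00118 in brown fat.

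Among peaks higher in AKO iWAT, a peak 16212 bp upstream of Eln, the elastin gene (chr5:134763241-134763829), had 82.0, 67.8 and 99.0 in flox against 175, 192 and 161 in AKO samples (1.09 ± 0.17, DESeq2 adjusted p 6.1e-05). In brown fat the same site was far stronger and overlapped, at 1101, 989 and 882 in flox against 901, 759 and 1173 in AKO mice. An intronic peak of Olfm1, a secreted glycoprotein (chr2:28218986-28219377), had 44.2, 37.8 and 54.2 against 94.5, 105 and 112 (1.19 ± 0.17, DESeq2 adjusted p 0.00109). An intronic peak of Miga2, a mitochondrial outer membrane protein involved in fusion, had 73.4, 61.1 and 68.0 against 142, 129 and 135 (0.99 ± 0.13, DESeq2 adjusted p 0.00109). A peak assigned to Gm9899 lay in an intron of Kcnk3, a potassium channel gene of thermogenic fat, and had 57.7, 58.9 and 62.8 against 107, 114 and 109 (0.87 ± 0.12, DESeq2 adjusted p 0.0149). Peaks at Plekhf2, an endosomal protein, and 9030625G05Rik were higher by 1.11 ± 0.16 and 1.18 ± 0.15, with DESeq2 adjusted p of 0.00109 and 0.00888. At Miga2, Gm9899, Olfm1, Plekhf2 and Eln the brown fat genotypes overlapped. Of the 60 lower and 107 higher DESeq2 calls in iWAT, 57 and 107 had genotypes without overlap.

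The differences of the tissues were weakly related. Across the 13219 pairs, the 2 log2 differences had a Pearson r of 0.134 and a Spearman rho of 0.122, and 54.2% had the same sign. Without PC1 in the brown fat fit, r was 0.037 and 50.1% had the same sign. Over all 31487 overlapping pairs r was 0.113 with and 0.081 without PC1, and 53.3% and 51.5% had the same sign. Without overlap in both tissues were 119 pairs lower in both (9.83% of the 1210 in brown fat and 10.8% of the 1105 pairs in iWAT) and 182 higher in both (14.9% of 1218 and 10.3% of 1775), while 136 were lower in brown fat and higher in iWAT and 96 the reverse. Over all overlapping pairs the shares were close to these, with 330 lower in both (11.7% of the lower peaks of either tissue), 380 higher in both (14% in brown fat and 10.4% in iWAT), and 260 and 204 in opposite directions. The 1105 pairs hold 1097 iWAT peaks, since a few partners served more than 1 brown fat peak.

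**Figure D3:**
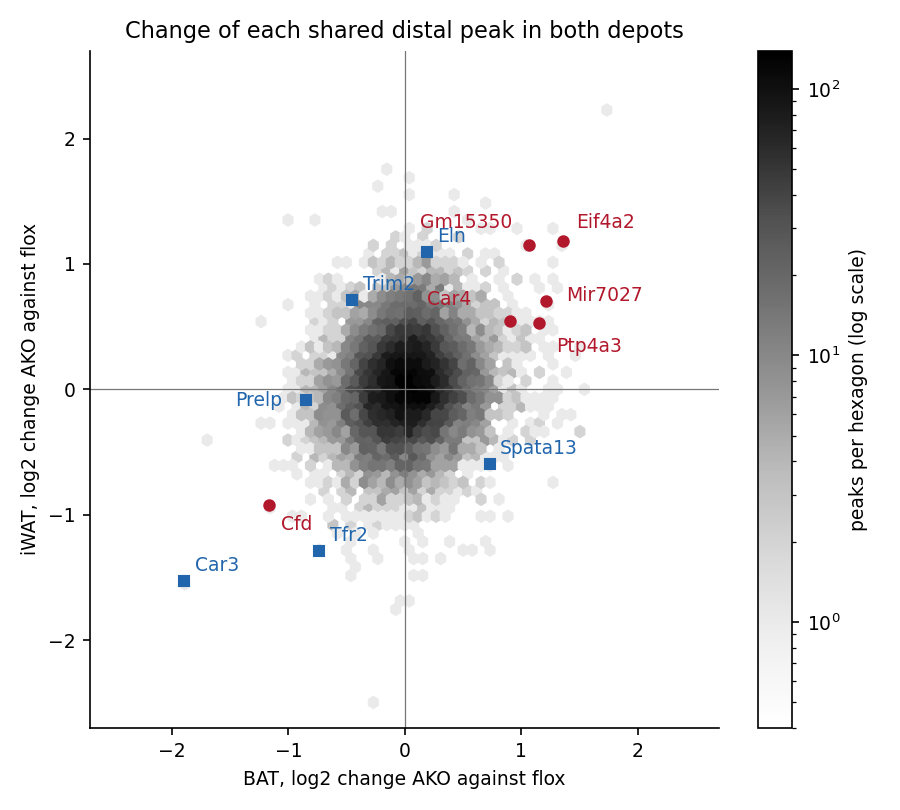
Log2 difference, AKO against flox, in iWAT (vertical) against brown fat (horizontal) for the 13219 shared distal pairs, with named peaks marked. The cloud is nearly round, with Pearson r = 0.134, and Cfd and Car3 lie low in both tissues.

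DESeq2 called 6 pairs in both tissues, chosen here after their values were seen, and all 6 in the same direction. They are 14.3% of its 42 brown fat calls and 3.59% of its 167 iWAT calls, and the share over all overlapping pairs is not given. Cfd was the only one lower. Ptp4a3 had 121, 125 and 144 in flox against 209, 167 and 188 in AKO iWAT (DESeq2 log2 difference 0.53 ± 0.16, adjusted p 0.0956). Car4 had 130, 115 and 136 against 191, 178 and 185 in iWAT (0.54 ± 0.16, adjusted p 0.0837 by DESeq2). Gm15350 had 36.4, 28.9 and 45.6 against 104, 77.6 and 68.4 in iWAT (1.16 ± 0.27, adjusted p 0.0123 by DESeq2), and 540, 279 and 221 against 619, 255 and 344 in brown fat, where the genotypes overlapped. Mir7027 had 87.7, 115 and 93.8 against 159, 148 and 173 in iWAT (0.71 ± 0.18, adjusted p 0.025 by DESeq2), and 308, 115 and 111 against 297, 168 and 207 in brown fat, again with overlap. The sixth was Eif4a2, on chromosome 16, described below. Of the 22 peaks called higher in brown fat, 14 were higher without overlap in iWAT and 0 were lower, with a median iWAT difference of 0.40. Of the 20 called lower, 7 were lower and 1 was higher without overlap in iWAT, with a median of -0.16. Of the 107 called higher in iWAT, 8 were lower and 8 higher without overlap in brown fat. Among all shared distal peaks, 8.33% were lower and 13.5% higher without overlap in iWAT, and 9.15% and 9.21% in brown fat. Of the 22 higher calls in brown fat, 3 were called again without PC1.

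The genotype difference itself was compared between the tissues in 1 limma fit over all 31487 overlapping pairs. Mice of brown fat and aliquots of iWAT shared 1 estimate of the spread in it, so its p-values do not cover differences between iWAT mice. The paper's ATAC-seq methods describe cold acclimation for iWAT only, and pooling and sequencer differed as well. Tissue cannot be told apart from these. The fit called 0% of the pairs at an adjusted p of 0.1, with a smallest value of 0.176 among shared distal pairs. Without PC1 it called 7 of the shared distal pairs, those of Spata13 and B3gntl1 among them. The share over all pairs is not given for that setting. The pairs named here had the 4 smallest p in each direction among pairs averaging 50 or more normalized reads in each tissue, which the pair at 0.176 did not. At an unadjusted p of 0.05, 730 shared distal pairs had an effect in iWAT below that in brown fat (5.52%, against 5.21% of all pairs) and 765 above (5.79%, against 4.31%). At Spata13, a guanine exchange factor, an intronic peak (chr14:60736615-60737170) had 101, 129 and 109 in flox against 182, 211 and 206 in AKO brown fat, and 84.1, 77.8 and 68.0 in flox against 45.0, 55.9 and 50.3 in AKO iWAT. The genotypes did not overlap in either tissue and lay in opposite order, with a difference between tissues of -1.32 ± 0.23 (limma adjusted p 0.217). B3gntl1 had the same pattern, with 93.0, 124 and 115 against 187, 187 and 184 in brown fat and 67.0, 72.3 and 68.0 against 40.3, 50.2 and 47.0 in iWAT (-1.23 ± 0.21). Upstream of Trim2, a ubiquitin ligase gene, the order was the other way round, with 437, 415 and 457 against 315, 319 and 332 in brown fat and 46.3, 47.8 and 60.3 against 86.4, 83.3 and 83.4 in iWAT (1.16 ± 0.20). At Slc39a9, a zinc transporter, the values were 593, 581 and 574 against 415, 338 and 428 in brown fat and 96.2, 110 and 105 against 148, 147 and 152 in iWAT (0.94 ± 0.18). The other 4 named by the same rule were Ablim1 (-1.22 ± 0.20) and H2-K2 (-1.15 ± 0.21, and -0.76 without PC1) with the lower effect in iWAT, and Pex7 (1.18 ± 0.21) and 4930482G09Rik (1.42 ± 0.28) with the higher. Among these 8 pairs, the limma adjusted p of the difference was 0.217 to 0.254.

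Genes of heat production had 39 shared distal peaks at 18 of 31 listed genes. In AKO brown fat 12 were lower and 3 higher without overlap (30.8% and 7.69%, against 9.15% and 9.21% of all shared distal peaks), with a median of -0.09 and of -0.22 without PC1. In AKO iWAT 3 were lower and 8 higher (7.69% and 20.5%, against 8.33% and 13.5%), with a median of 0.20. Summed over the 39 peaks, flox brown fat had 17058 to 19850 and AKO 12742 to 16555 normalized reads, while flox iWAT had 3023 to 3295 and AKO 3420 to 3617, so that the sums were ordered oppositely without overlap in either tissue. Strong peaks made up most of the list. In brown fat 23 of the 39 were in the strongest of 3 equal classes of shared distal peaks by signal, with 10 lower and 0 higher, and over that whole class 15.9% were lower and 3.27% higher. In iWAT 6.27% of that whole class were lower and 17.2% higher without overlap. None of the list passed an adjusted p of 0.1 by limma, and DESeq2 called 1, higher in brown fat, at Acot11, an acyl-CoA thioesterase gene. That peak had 936, 543 and 554 in flox against 1126, 547 and 722 in AKO mice, with overlap (0.81 ± 0.27, and 0.22 without PC1, DESeq2 adjusted p 0.0432).

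Ucp1, the uncoupling protein itself, had 3 shared distal peaks. The peak 29663 bp upstream (chr8:83260410-83260961), in an intron of Tbc1d9, had 284, 287 and 222 in flox against 133, 176 and 138 in AKO brown fat (-0.87 ± 0.24, DESeq2 adjusted p 0.137). The peak 11429 bp upstream (chr8:83278222-83279617) had 975, 938 and 679 against 544, 489 and 464 (-0.57 ± 0.22). Neither overlapped between genotypes in brown fat, and both overlapped in iWAT, at 55.6, 63.4 and 68.0 against 72.6, 59.4 and 64.2 for the farther one. The peak 19714 bp downstream had the opposite division, with 154, 121 and 142 against 109, 133 and 137 in brown fat and 60.6, 44.5 and 46.5 against 38.0, 41.1 and 20.3 in iWAT (-0.64 ± 0.28). Upstream of Ppargc1b, a coactivator of mitochondrial genes, a peak 37868 bp away had 1759, 1743 and 1714 in flox against 1266, 831 and 1225 in AKO brown fat (-0.41 ± 0.21, and -0.68 without PC1), and 54.2, 48.9 and 51.6 against 72.6, 85.6 and 67.4 in iWAT (0.53 ± 0.14). The genotypes did not overlap in either tissue. A peak by Letmd1 was higher in AKO iWAT, with 29.2, 24.5 and 21.5 against 47.3, 42.2 and 59.9 (0.96 ± 0.18), and 110, 100 and 105 against 99.0, 96.6 and 110 in brown fat. Cidea, a lipid droplet protein gene of brown fat, had 2. The peak 7012 bp upstream had 49.2, 66.7 and 51.6 against 81.8, 85.6 and 74.8 in iWAT (0.54 ± 0.16), and overlapped in brown fat (0.11 ± 0.19, and -0.18 without PC1). The peak 19085 bp upstream had 168, 151 and 133 in flox against 106, 94.6 and 117 in AKO brown fat, without overlap (-0.30 ± 0.18, and -0.50 without PC1), and overlapped in iWAT (-0.01 ± 0.18).

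Genes of fatty acid uptake and oxidation had 31 shared distal peaks, of which 12 were lower and 0 higher without overlap in AKO brown fat (38.7% and 0%, against 9.15% and 9.21% of all shared distal peaks), with a median of -0.18 and of -0.30 without PC1. In AKO iWAT 3 were lower and 7 higher (9.68% and 22.6%, against 8.33% and 13.5%), with a median of -0.05. By limma at an unadjusted p of 0.05, 3 were lower and 0 higher in brown fat and 2 and 5 in iWAT. Of all shared distal peaks these were 3.25% and 4.21% in brown fat and 6.47% and 10.7% in iWAT. Of the 31 peaks, 20 were in the strongest class, with 9 lower and 0 higher without overlap in brown fat, against 15.9% and 3.27% of that class. In iWAT that class had 6.27% lower and 17.2% higher. The brown fat sums were 12121 to 13725 in flox and 8993 to 11204 in AKO mice. DESeq2 called 1 of the list, lower in iWAT, and none in brown fat. At Acsl1, the acyl-CoA synthetase that activates fatty acids for oxidation, an intronic peak had 704, 653 and 682 in flox against 455, 450 and 470 in AKO brown fat (-0.54 ± 0.17, DESeq2 adjusted p 0.18), and another had 493, 463 and 464 against 255, 394 and 374. In iWAT both overlapped. A peak upstream of Fabp3, a fatty acid carrier of oxidative tissues, had 866, 746 and 755 against 653, 527 and 595 in brown fat (-0.24 ± 0.18, and -0.42 without PC1) and 76.3, 74.5 and 82.6 against 104, 106 and 129 in iWAT (0.53 ± 0.14). A peak assigned to Fabp4, the fatty acid carrier of fat cells, lay in an intron of its neighbour Fabp12 and was lower in AKO iWAT, with 60.6, 66.7 and 66.3 against 39.2, 42.2 and 26.7 (-0.85 ± 0.19).

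Genes of lipid synthesis, storage and lipolysis had 66 shared distal peaks, with 10 lower and 7 higher without overlap in AKO brown fat (15.2% and 10.6%, against 9.15% and 9.21% of all shared distal peaks) and 3 lower and 11 higher in AKO iWAT (4.55% and 16.7%, against 8.33% and 13.5%). The brown fat median was 0.03 with and -0.14 without PC1, and the iWAT median was 0.01. The strongest class held 41 of them, with 8 lower and 3 higher in brown fat. DESeq2 called 1 lower in brown fat, at Dgat1, the final enzyme of triglyceride synthesis. That peak, in the neighbouring gene Hsf1, had 423, 372 and 651 in flox against 305, 471 and 314 in AKO mice, with overlap (-0.86 ± 0.24, and -0.39 without PC1, DESeq2 adjusted p 0.029). In iWAT it called 1 lower and 2 higher. Downstream of Scd1, the stearoyl-CoA desaturase, the values were 379, 279 and 509 in flox against 180, 237 and 195 in AKO iWAT (-0.89 ± 0.23, DESeq2 adjusted p 0.0874). At Mgll, the lipase of monoglycerides, they were 85.5, 84.5 and 70.6 against 152, 135 and 119 (0.74 ± 0.15, DESeq2 adjusted p 0.0319). Pck1, the enzyme that supplies glycerol for triglycerides, had 2 shared distal peaks with opposite differences in brown fat. The nearer one (chr2:173159380-173160797) had 2232, 1533 and 2228 in flox against 1178, 699 and 1008 in AKO mice (-0.78 ± 0.29), and the farther one 233, 259 and 226 against 366, 290 and 343 (0.61 ± 0.19). In iWAT the farther one was also higher, with 42.1, 31.1 and 28.4 against 50.7, 55.9 and 65.2 (0.75 ± 0.19), and the nearer one overlapped. Dgat2, the partner enzyme of Dgat1, had 2 peaks whose genotypes differed by -0.26 and -0.27 (-0.21 and -0.49 without PC1) in brown fat and 0.35 and 0.06 in iWAT.

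Transcription factors and secreted products of adipocytes had 87 shared distal peaks, with 16 lower and 5 higher without overlap in AKO brown fat (18.4% and 5.75%, against 9.15% and 9.21% of all shared distal peaks) and 10 lower and 9 higher in AKO iWAT (11.5% and 10.3%, against 8.33% and 13.5%). The brown fat median was -0.03 with and -0.07 without PC1, and the iWAT median was 0.01. By limma at an unadjusted p of 0.05, 10 were lower and 5 higher in brown fat and 8 and 10 in iWAT. Of all shared distal peaks these were 3.25% and 4.21% in brown fat and 6.47% and 10.7% in iWAT. The strongest class held 49 of the 87, with 13 lower and 3 higher without overlap in brown fat, against 15.9% and 3.27% of that class. DESeq2 called 2 lower and 1 higher in brown fat and 3 lower in iWAT. Besides Cfd, the brown fat calls included a peak 19247 bp downstream of Cebpa, a factor that drives adipocyte differentiation, with 305, 469 and 426 in flox against 210, 247 and 269 in AKO mice (-0.91 ± 0.25, DESeq2 adjusted p 0.0459). Its iWAT values were 133, 126 and 137 against 91.1, 108 and 87.7 (-0.46 ± 0.14, DESeq2 adjusted p 0.257), so that all 3 AKO samples were lower in both tissues. Car3, a carbonic anhydrase of mature adipocytes, had 4 peaks, all negative in both tissues by limma. The farthest, 22449 bp upstream, overlapped in both tissues. Its brown fat difference was -0.02 ± 0.34 (-0.52 without PC1), and 0.06 by DESeq2. The strongest, 9644 bp downstream of the start (chr3:14872590-14873775), had 489, 863 and 1898 in flox against 355, 299 and 424 in AKO brown fat, and 557, 320 and 557 against 209, 174 and 112 in iWAT. The genotypes did not overlap in either tissue, but the flox mice spread widely, and the difference was -1.90 ± 0.53 in brown fat (DESeq2 adjusted p 0.414) and -1.53 ± 0.30 in iWAT (DESeq2 adjusted p 0.0116).

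The 3 peaks of Pparg, the master regulator of adipocytes, differed by -0.49 to -0.13 in brown fat (-0.50 to -0.32 without PC1), where the genotypes did not overlap at 2 of them, and by -0.14 to 0.43 in iWAT. At the farthest, 48332 bp downstream, the values were 452, 540 and 475 in flox against 372, 332 and 328 in AKO brown fat (-0.49 ± 0.19). An intronic peak of Ebf1, a factor of early adipocyte and B cell development, had 15.0, 25.6 and 23.2 against 40.3, 50.2 and 37.4 in iWAT (0.99 ± 0.22, DESeq2 adjusted p 0.167) and 204, 275 and 292 against 185, 195 and 216 in brown fat. The 2 peaks of Mc2r, the ACTH receptor gene, differed by -0.06 and 0.16 in brown fat (0.06 and -0.24 without PC1) and 0.21 and -0.28 in iWAT, with overlap at both. Smarcd3, which encodes BAF60c, had 1 shared distal peak, at 636, 554 and 497 against 513, 400 and 564 in brown fat and 247, 247 and 214 against 258, 267 and 278 in iWAT (0.18 ± 0.13). Smarcd1, the deleted gene, Smarcd2 and Ifi27l2a had 0.

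Markers of other cells had few shared distal peaks. In brown fat, without overlap, 1 of 12 fibroblast peaks was lower and 3 higher, 0 and 1 of 13 endothelial, 1 and 0 of 6 myeloid, 0 and 0 of 6 lymphocyte, 2 and 1 of 12 smooth muscle and pericyte, 1 and 1 of 6 epithelial, and 4 and 2 of 18 Schwann cell and nerve peaks. In iWAT the numbers were 0 and 0, 1 and 1, 0 and 2, 0 and 3, 1 and 1, 1 and 2, and 1 and 1. Of all shared distal peaks, 9.15% were lower and 9.21% higher without overlap in brown fat and 8.33% and 13.5% in iWAT. Skeletal muscle markers had 0 peaks. Summed normalized reads over the 6 lymphocyte peaks were 548 to 604 in flox and 607 to 659 in AKO iWAT, and 1211 to 1295 and 1305 to 1370 in brown fat. Over the 6 myeloid peaks they were 251 to 269 and 264 to 342 in iWAT. Over the 18 Schwann cell and nerve peaks they were 4574 to 5252 in flox and 3986 to 4568 in AKO brown fat, lower without overlap, as the sums of heat production and fatty acid genes were, and 10 of the 18 were in the strongest class. The sums of the other marker lists overlapped between genotypes, as did the myeloid sums in both tissues and the Schwann cell sums in iWAT. By contrast, the 2 iWAT peaks of Ptprc, the pan-leukocyte gene, which are not among the shared distal ones, summed to 121 to 136 in flox and 60.9 to 78.4 in AKO samples, and Krt14, a gene of surface epithelium, had 0 peaks in either table. The part of other cells in the differences of the adipocyte genes was not tested. For each list the peak with the smallest p is given. Thy1, a stromal surface protein, had 21.9, 16.3 and 16.8 in flox against 45.4, 40.6 and 36.5 in AKO brown fat, and overlapped in iWAT. Pmp22, a myelin gene, had 58.5, 79.1 and 82.8 against 130, 141 and 135 in brown fat, and the smooth muscle actin gene Acta2 had 58.5, 63.4 and 60.3 against 36.9, 40 and 29.9 in iWAT, without overlap there. Vwf, of endothelial cells, had 93.4, 94.5 and 103 against 73.8, 75.4 and 77.0 in iWAT. Csf3r, of neutrophils, had 34.9, 31.1 and 26.7 against 53.0, 52.5 and 40.6, and Bcl11b, a T cell factor, 54.9, 72.3 and 65.4 against 98.0, 93.6 and 81.3 in iWAT, both without overlap. In the other tissue, the smallest p values belonged to peaks with overlap at Pecam1 and Spi1 in brown fat and Col1a2 in iWAT, and to a peak by Mbp with 47.8, 67.8 and 47.3 against 84.1, 76.5 and 90.9 in iWAT. DESeq2 called 1 marker peak, by Krt8, which had 426, 375 and 422 in flox against 234, 226 and 223 in AKO brown fat (-0.82, adjusted p 0.0312).

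GC content varied with the differences in both tissues, and its part in them was not tested. From the poorest to the richest of 5 classes of shared distal peaks by G and C, the median difference went from -0.03 to 0.10 in brown fat (-0.09 to 0.10 without PC1) and from -0.07 to 0.10 in iWAT. The share lower without overlap went from 13.2% to 5.28% in brown fat and from 12.2% to 5.34% in iWAT, and the share higher from 5.31% to 15.0% and from 8.22% to 18.1%. Signal varied with them as well. From the weakest to the strongest of the 3 classes of brown fat signal, the share lower in AKO brown fat went from 4.42% to 15.9% and the share higher from 14.8% to 3.27%. In iWAT, with the same classes, the share higher went from 9.64% to 17.2%. The median brown fat difference was 0.03, 0.03 and 0.02 over the classes with PC1 and 0.17, 0.03 and -0.14 without it. Distance from the start made little difference, with medians of 0.02 to 0.04 in brown fat (-0.03 to 0.01 without PC1) and 0.02 to 0.05 in iWAT over 4 distance classes. The 1730 peaks near another annotated start had a median of 0.07 in brown fat (0.04 without PC1) and 0.03 in iWAT.

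**Figure D4:**
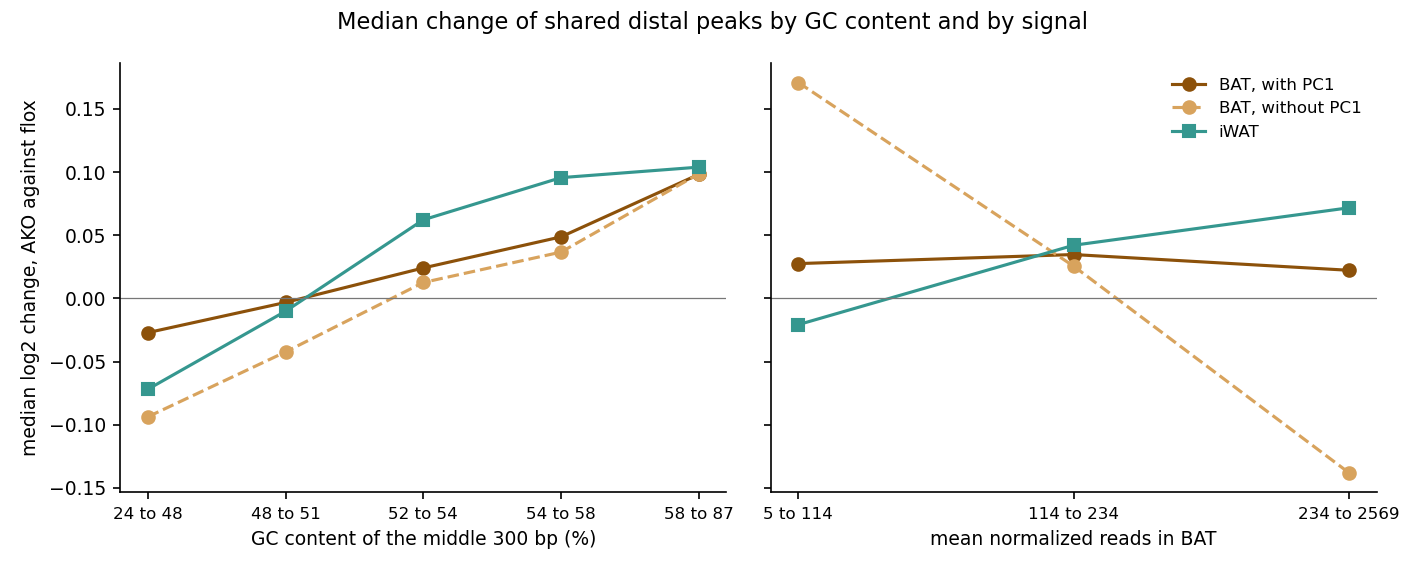
Median log2 difference, AKO against flox, of shared distal peaks by 5 classes of GC content and 3 of brown fat signal, for brown fat with and without PC1 and for iWAT. The GC lines climb, in iWAT from -0.07 to 0.10, and the brown fat line without PC1 falls from 0.17 to -0.14 with signal.

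Short DNA motifs of 12 transcription factors were searched on both strands in the 300 bases around each midpoint, and at least 1 was found in 38.9% of shared distal peaks. A match is a stretch of letters, not a bound site. PPARE, the PPAR-RXR element, was found in 6.66% of shared distal peaks, 8.20% of narrow distal peaks found in brown fat alone and 6.40% of all brown fat peaks. The ERR motif (TCAAGGTCA) was found in 0.598%, 1.40% and 0.873%, and the NBRE of NR4A receptors (AAAGGTCA, which ends in the same 7 letters as the ERR motif) in 2.18%, 3.66% and 2.65%. Both receptor motifs were thus rarer in the shared peaks than in those of brown fat alone. The 95% Wilson intervals of the ERR shares, 0.480% to 0.744% and 1.23% to 1.59%, did not meet. Those of most other motifs did not meet either, some rarer and some more common in the shared peaks. Such intervals treat peaks as independent draws. The sets also differed in width, GC content and signal, whose part in the shares was not tested. AP-1 (TGANTCA) was found in 11.1%, 9.22% and 8.73%, C/EBP (TTGCGCAA with at most 1 mismatch) in 8.19%, 6.77% and 7.19%, and ETS (ACCGGAAGT with at most 1 mismatch) in 4.15%, 3.37% and 5.0%. SP1 (GGGGCGGGG) was found in 2.94%, 0.987% and 4.61%, PAR bZIP (TTACNTAA) in 2.45%, 3.27% and 2.65%, CTCF in 2.52%, 2.29% and 1.80%, EBF in 2.23%, 3.13% and 2.40%, NF1 in 2.30%, 2.42% and 1.93%, and the glucocorticoid element (GRE) in 2.03%, 1.98% and 1.74%.

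Among shared distal peaks with an EBF motif (295), 5.42% were lower and 21.4% higher without overlap in AKO iWAT (median 0.15), and 9.83% and 8.47% in AKO brown fat. With the PPARE (881), 6.24% were lower and 15.8% higher in iWAT, and 11.9% and 9.65% in brown fat. With NBRE (288), 12.8% were lower and 4.86% higher in brown fat, and with the ERR motif (79), 16.5% and 3.8%. Peaks with the GRE (268) had the opposite iWAT split, 12.7% lower and 7.46% higher, against 8.33% and 13.5% of all shared distal peaks. For AP-1 (1473) the iWAT shares were 8.89% and 13.2%, close to those of all shared distal peaks, and for CTCF (333) they were 12% and 10.2%. The share higher in iWAT was 13.1% to 13.8% with C/EBP, NF1 or SP1, 11.7% with ETS and 10.5% with PAR bZIP. GC content and signal move with motif content, and their part in these shares was not tested.

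**Figure D5:**
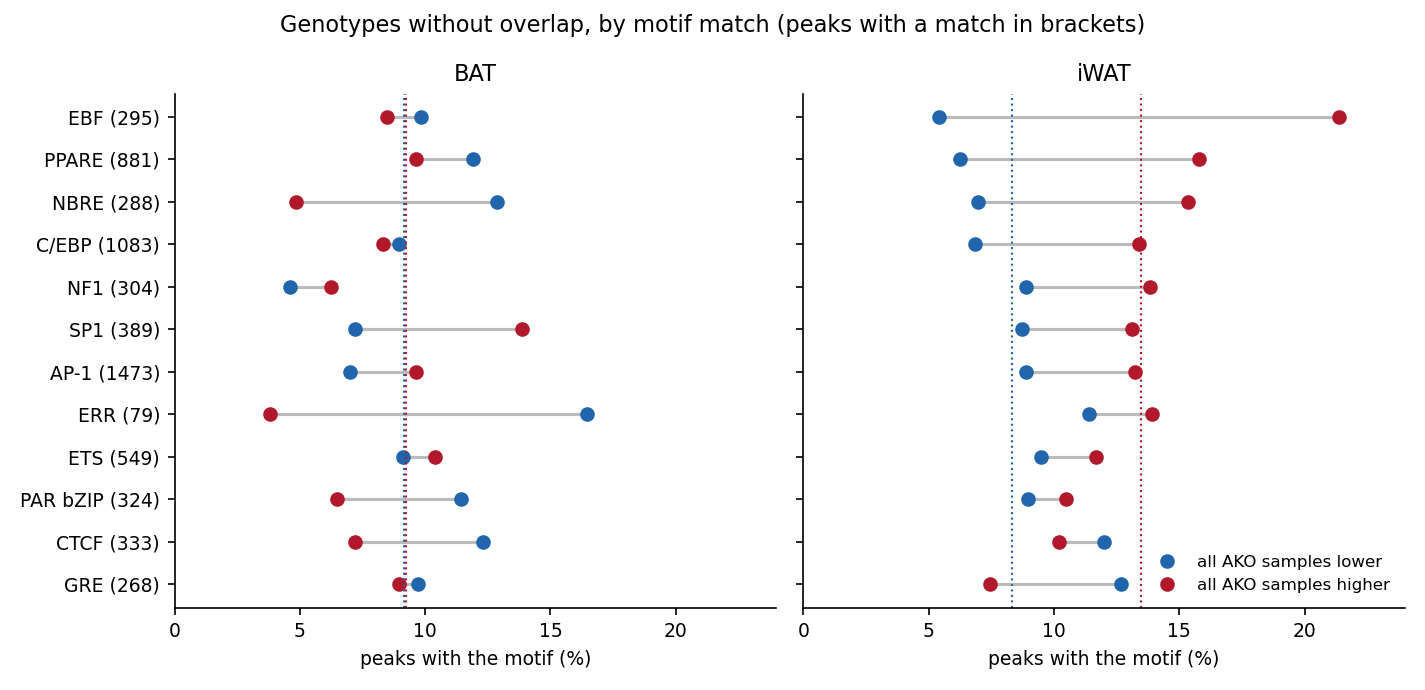
Share of shared distal peaks, in percent, lower and higher in AKO without overlap, for peaks holding each of 12 motifs, in brown fat and iWAT. EBF stands highest for peaks higher in AKO iWAT, at 21.4%, and GRE lowest, at 7.46%.

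On chromosome 16, 4 shared distal peaks between Hrg and Adipoq, a stretch of 22984189 to 23158743 whose bounds were set after the values were seen, were all more accessible in AKO samples of both tissues. The peak by Kng1 (chr16:23079124-23079482) was almost closed in flox, with 11.0, 7.39 and 28.5 in flox against 69.1, 120 and 62.4 in AKO brown fat, and 0.713, 2.22 and 4.30 against 10.4, 13.7 and 16 in iWAT. The peak by Eif4a2, a translation factor (chr16:23100436-23100901), had 29.3, 28.1 and 42.7 against 100, 216 and 108 in brown fat (1.36 ± 0.24, DESeq2 adjusted p 0.0759) and 18.5, 24.5 and 20.7 against 54.2, 51.4 and 42.8 in iWAT (1.18 ± 0.16, DESeq2 adjusted p 0.0492). By Rfc4, a replication factor, the brown fat values were 39.7, 43.6 and 82.8 against 114, 288 and 129, and at Adipoq, the adiponectin gene, 18.3, 31.0 and 46.6 against 48.5, 120 and 69.1. The genotypes did not overlap at 4 of 4 in brown fat and at 3 of 4 in iWAT. Peaks were kept if called in at least 2 replicates of either genotype. A peak as weak in flox as that of Kng1 may have entered through the AKO samples alone. Its higher level in AKO samples would then follow from that selection, which was not tested. AKO mice carry the Adiponectin-Cre transgene and flox mice do not, so that loss of BAF60a and presence of the transgene cannot be told apart at these peaks.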

How the data were processed

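ATAC-seq was measured in 12 samples, 3 per genotype in brown fat and in iWAT. The authors trimmed adapters, mapped paired reads of 38 bp to mm10 (BWA 0.7.17-r1188), removed duplicates (Picard 2.8.14), kept autosomal reads with a mapping quality of at least 30, called broad peaks per sample (MACS2 2.1.1.20160309), kept peaks found in at least 2 replicates of a genotype and counted reads in them. The deposited signal values are these read counts after division by each sample's size factor (DESeq2 1.20.0). The deposited tables also hold the authors' log2 fold changes, their test scores and their p-values, which were not used here. Every per-sample column was used (0 unused).

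Dividing each column by its smallest step gave whole reads for 100% of values (tolerance 0.01). Each tissue was tested with limma 3.58.1 (lmFit and eBayes, pseudocount 1, no filter), with PC1 in brown fat, a threshold of 0.1 and adjustment over all peaks of its table. The tissues were compared in 1 joint limma fit. DESeq2 1.42.0 and edgeR 4.0.16 ran on the whole reads, in R 4.3.3. Python 3.11.15 and bedtools 2.31.1 did the rest. In data simulated at each table's depth, with 100 peaks changed by 1 log2 unit, limma called 13 in brown fat and 77 in iWAT, and DESeq2 84 and 99, with 4, 9, 50 and 2 calls at unchanged peaks in these runs. Another 100 peaks were changed by 2 log2 units in the same runs. Only peaks averaging at least 100 normalized reads were changed, and the simulated fits held no PC1. The counts therefore do not describe the brown fat fits with PC1 or weaker peaks. Printed starts are 1-based. Genes are the authors' assignments, and places follow GENCODE's mm10 annotation.

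The peaks, the 12 gene lists (237 genes), the motifs and the tests were chosen with earlier results of these data known. Named were all shared distal peaks of 12 genes (Ucp1, Cidea, Car3, Ifi27l2a, Pparg, Cfd, Dgat2, Pck1, Mc2r and Smarcd1 to Smarcd3), the 6 with the smallest limma p per tissue and direction without overlap whose mean was 50 normalized reads or more, the 4 pairs with the smallest p per direction between tissues among those with that mean in both, and the smallest p per gene list, with up to 2 more. Of these, 3 peaks are not reported here. The alternatives tried were total reads, TMM, cyclic loess and GC correction as scaling, the tools above, limma with a trend, low-value filters at 10, pseudocounts of 0.1 and 10, a threshold of 0.05, other PC1 settings, sample weights, a stricter overlap, replicate blocks and each sample left out. The GC correction and the alternatives for DESeq2 calls and for counts without overlap were added after the data were seen.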

Additional observations from a re-analysis of the deposited data

How the results depend on the processing

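By limma, the number of shared distal peaks called stayed at 0 in brown fat and in iWAT under every scaling, filter, pseudocount, threshold and PC1 setting tried and with each library left out (0 to 0). With a mean-variance trend limma called 7 in brown fat, 508 in iWAT and 8 in the difference between tissues. DESeq2 called 42 and 167, and edgeR 14 and 661. Counts under these other settings stand here without the share over all peaks, and show only how far the calls depend on the setting. The difference had 7 calls without PC1 and 0 to 1 with a library left out, the 1 without iWAT flox 2. The replicate numbers did not pair the samples, since deviations of same-numbered samples correlated at 0.49, 0.06 and -0.24 in brown fat and at -0.04, -0.05 and -0.06 in iWAT. With a replicate block, limma still called 0, and DESeq2 called 1 lower and 0 higher in brown fat and 1 and 1 in iWAT. At a threshold of 0.05, DESeq2 had 10 lower and 12 higher in brown fat and 21 and 39 in iWAT, and without PC1 it had 70 and 56 in brown fat. Leaving out 1 library gave 0 to 24 lower and 1 to 56 higher calls in brown fat and 2 to 83 and 3 to 77 in iWAT. The lower count moved by over 1.5 times without brown fat flox 1, 2 or 3 (5, 5 and 0) or AKO 1 (3), and without iWAT flox 1 or 3 (2 and 5) or AKO 1, 2 or 3 (10, 6 and 10), and the higher count without brown fat flox 1, 2 or 3 (11, 3 and 3), AKO 1 (1) or AKO 3 (56), and without iWAT flox 1 or 3 (3 and 12) or AKO 1, 2 or 3 (13, 9 and 11). Peaks without overlap numbered 1595 to 2221 lower and 1632 to 2528 higher in brown fat and 1570 to 2164 and 2303 to 2699 in iWAT with 1 library fewer, as fewer samples must give. The iWAT split stayed at 54.6% to 64.2% higher, lowest without flox 2. Of 2389 repeats of 125 named values, 2247 kept their direction and their side of the threshold, and 78 passed a threshold. Another 58 changed sign where the unadjusted limma p of the main fit was 0.05 or more. The other 6 reversed a difference whose main unadjusted limma p was under 0.05. The Hadh peak 33884 bp from its start was 0.0504 in brown fat without PC1. With PC1 in the iWAT fit, where it separates the genotypes, the peaks of Cidea (-0.89), Ebf1 (-2.57), Bcl11b (-1.59), Krt8 (-0.55) and Egr2 (0.40) reversed. The iWAT spread is that of aliquots, which is smaller than that of mice can be, and low counts limit what was detectable at the weaker iWAT peaks.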

Other observations

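The 4 shared distal peaks on chromosome 16 lay in a longer stretch of raised accessibility. Between Hrg and Adipoq (22984189 to 23158743, bounds set after the values were seen), all 20 brown fat peaks of any kind had a positive AKO difference, with a median of 1.04 (1.73 without PC1) and a range of 0.25 to 2.01, and 16 had genotypes without overlap. In iWAT all 8 peaks were positive, with a median of 0.62, and 5 had no overlap. Within 150000 bp on either side, 11 of 14 brown fat peaks were positive with a median of 0.17 and 2 without overlap, and 4 of 8 iWAT peaks with a median of 0.02 and 1 without overlap. Peaks were kept if called in either genotype, so some of these may have entered through AKO samples alone. The cause was not tested.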
